A study of Homo sapiens with 2 samples.

Results

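The YAP/TEAD pathway was followed through 10 genes, the transcriptional coactivators YAP1 and WWTR1, the DNA-binding partners TEAD1 and TEAD4, the target genes CCN1 (formerly CYR61), CCN2 (formerly CTGF) and ANKRD1, and the pathway regulators AMOTL2, AJUBA and LATS2. The genes were chosen by name, with earlier results of these data known, as were the gene lists below. Every probe set annotated to a single one of the 10 genes was taken, which gave 24 probe sets of 41097 and 10 genes of 19775. RNA came from the established NSCLC line H322c. Cells had received either 1 µM gefitinib, an inhibitor of the EGFR kinase, or 0.1% DMSO as the vehicle control, each for 4 days. In both conditions the cells had been plated 24 hrs earlier and were kept in RPMI with 10% FBS. Each condition was measured on 1 Affymetrix U133 Plus 2.0 array, so the design has no replicates and allows no test, and the differences below describe these 2 arrays of 1 cell line.

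YAP1 and WWTR1 (the gene of TAZ) are coactivators that do not bind DNA themselves but reach their target genes through the TEAD factors. In the Hippo pathway the MST kinases activate the LATS kinases, which phosphorylate YAP and TAZ so that they are held in the cytoplasm or degraded, and cell contact, the actin cytoskeleton and growth factor signals feed into this step. Several targets of YAP and TAZ, among them LATS2 and AMOTL2, encode inhibitors of YAP and TAZ, and the pathway is known in lung epithelium for its roles in regeneration and in the survival of EGFR-inhibited tumor cells.

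TEAD factors recognise the sequence GGAATG, which reads CATTCC on the opposite strand. RefSeq promoter sequences (GRCh38.p14, 250 bases before to 50 after a start site) were found for 7 of the 10 genes in 10 windows. TEAD1, TEAD4 and CCN1 had no entry. The 4 windows below are those of the 3 genes that passed 2-fold on the arrays, each at the start site that holds a match, and of ANKRD1, a textbook target that was below the detection limit used here. Each sequence is the part before the start site, on the strand of the gene, with the matches in capitals. The CCN2 window is chr6:131951373-131951622, that of AMOTL2 chr3:134374448-134374697, that of AJUBA chr14:22976843-22977092 and that of ANKRD1 chr10:90921088-90921337, all on the minus strand.
CCN2: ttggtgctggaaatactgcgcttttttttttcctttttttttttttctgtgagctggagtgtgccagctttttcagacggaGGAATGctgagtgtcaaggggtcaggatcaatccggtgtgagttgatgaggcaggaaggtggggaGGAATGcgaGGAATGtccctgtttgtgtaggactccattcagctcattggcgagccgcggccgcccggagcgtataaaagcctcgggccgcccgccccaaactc
AMOTL2: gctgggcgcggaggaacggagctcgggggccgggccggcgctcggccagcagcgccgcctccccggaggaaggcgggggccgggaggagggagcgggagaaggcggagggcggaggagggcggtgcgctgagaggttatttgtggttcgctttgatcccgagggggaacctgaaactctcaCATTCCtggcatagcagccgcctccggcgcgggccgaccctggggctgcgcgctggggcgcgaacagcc
AJUBA: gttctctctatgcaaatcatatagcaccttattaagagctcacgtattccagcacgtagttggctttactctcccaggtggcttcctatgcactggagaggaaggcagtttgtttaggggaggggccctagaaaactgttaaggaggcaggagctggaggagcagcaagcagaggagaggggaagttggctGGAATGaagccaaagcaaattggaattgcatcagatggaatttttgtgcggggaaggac
ANKRD1: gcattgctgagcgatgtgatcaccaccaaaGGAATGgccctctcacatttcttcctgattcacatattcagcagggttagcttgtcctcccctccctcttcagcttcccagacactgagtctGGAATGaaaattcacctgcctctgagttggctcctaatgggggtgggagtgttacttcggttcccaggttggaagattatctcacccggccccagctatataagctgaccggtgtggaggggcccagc

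The CCN2 window held 3 matches, whose first bases lay 169, 104 and 95 bases before the start site. Of all 35116 RefSeq windows of the same length, 4928 (14.0%) held at least 1 match and 45 (0.128%) held 3 or more. The ANKRD1 window had matches 220 and 128 bases before the start, AMOTL2 had 1 at 69 bases and AJUBA 1 at 59 bases. The single match of YAP1 lay 162 bases before its start, and that of LATS2 began at base 10 after it. In all, 6 of the 10 windows held the motif. Both WWTR1 windows and the other windows of AMOTL2 and AJUBA held none. The AP-1 motif TGANTCA, searched because AP-1 factors often bind near TEADs, was found in 1 member window, that of ANKRD1 at 195 bases before the start (TGATTCA), and in 7.71% of all windows. It overlapped no TEAD match. A match of letters is a description and does not show binding.

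**Figure D1:**
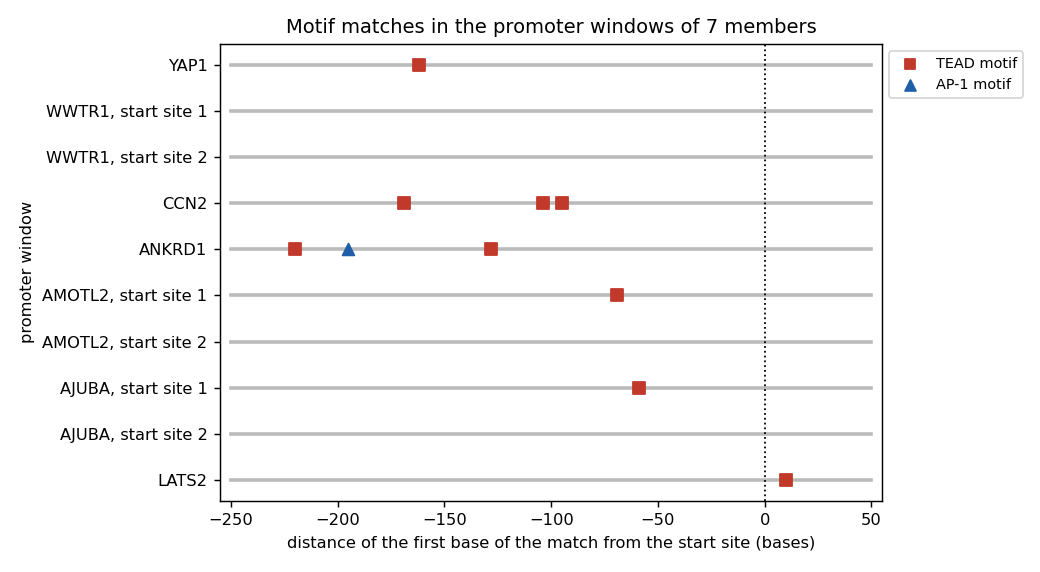
Distance of the first base of each motif match from the start site (horizontal axis, in bases) for the 10 promoter windows of 7 genes (vertical axis). Red squares are TEAD motifs and the blue triangle is an AP-1 motif; CCN2 has 3 red squares, the most of any window shown, and WWTR1 has none.

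The deposited values were MAS5 signals on a linear scale. Signals under 100 were set to 100, and a gene with a probe set at or above this floor in either condition counted as measured (11223 genes). Its brightest probe set, by mean log2 signal, stood for the gene, and differences counted from 2-fold upward. A fold whose lower signal lay under 100 is a lower bound, marked by the words at least. As a measure of error, probe sets for 1 gene differed with an SD of 0.54 in log2 ratio (4610 genes), which leaves out the variation between cultures. The median log2 ratio of all measured genes was 0.12, and it ran from -0.07 with the arrays scaled to the hybridization spike-ins to 0.28 when they were scaled to the GAPDH control probe set. The 6 epithelial marker genes (EPCAM, CDH1, KRT7, KRT8, KRT18 and KRT19) were all measured and within 2-fold, with summed signals of 137861 with DMSO and 115815 with gefitinib.

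Of the 10 genes, 9 were measured, and CCN2, AMOTL2 and AJUBA were at least 2-fold higher on the gefitinib array. This is 3 of 9 (33.3%), where 13.3% of all measured genes were at least 2-fold higher. None of the 9 was at least 2-fold lower at its brightest probe set, against 6.2% of all measured genes. The coactivators, both TEADs, CCN1 and LATS2 were within 2-fold, and ANKRD1 reached the floor on neither array. The median log2 ratio of the 9 genes was 0.32, beside 0.12 for all measured genes. In RNA from a whole culture, a change in RNA per cell and a change in the share of cells that express a gene cannot be told apart.

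Of the 24 probe sets, 20 were measured. At least 2-fold higher were 5 of them, where 12.1% of all 20172 measured probe sets were, and at least 2-fold lower were 2, where 7.26% of all were. The 5 belonged to CCN2, AMOTL2 and AJUBA, and the 2 were 202134_s_at of WWTR1 and 230348_at of LATS2, neither of them the brightest of its gene.

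**Figure D2:**
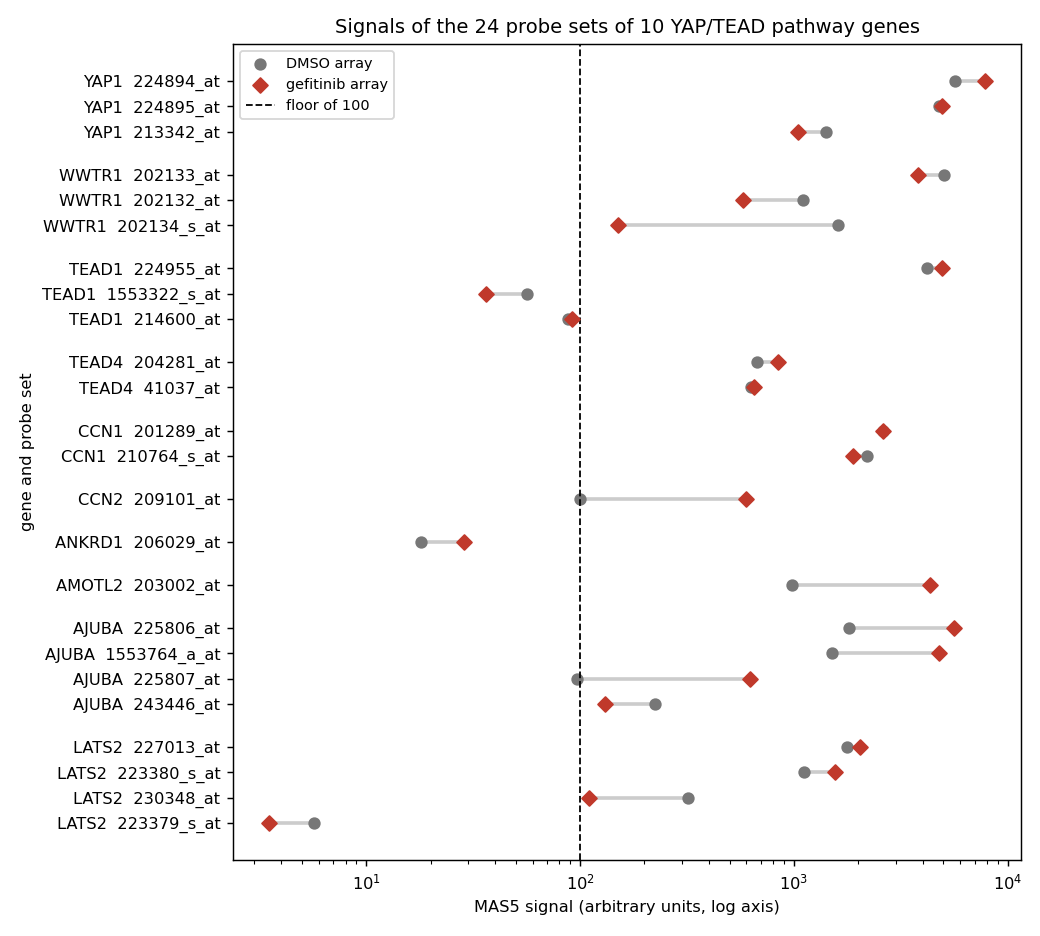
MAS5 signal (horizontal log axis) of the 24 probe sets of the 10 genes on the DMSO array (grey circles) and the gefitinib array (red diamonds), from a single array for each condition. The floor of 100 is dashed; CCN2, AMOTL2 and 3 AJUBA probe sets have the red point far to the right, and WWTR1 202134_s_at has it far to the left.

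YAP1, the coactivator after which the pathway is often named, stayed within 2-fold at each of its 3 probe sets. The brightest, 224894_at, read 5687.0 on the DMSO array and 7851.8 on the gefitinib array, a log2 ratio of 0.47. At 224895_at it was 4790.8 and 4905.3 (0.03), and at 213342_at it was 1407.2 and 1040.3 (-0.44). The sign therefore differed between probe sets, and their mean log2 ratio was 0.02. The range of 0.90 between them was matched or exceeded in 560 of the 1453 genes with 3 measured probe sets (38.5%).

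WWTR1, which encodes TAZ, gave the widest disagreement in size among the coactivators. At its brightest probe set, 202133_at, DMSO gave a signal of 5034.4 and gefitinib 3784.0, a log2 ratio of -0.41. At 202132_at the signal was 1106.4 and 579.2, 1.91-fold lower. At 202134_s_at it was 1604.2 and 149.8, 10.7-fold lower (log2 ratio -3.42). All 3 probe sets had a lower signal with gefitinib, but only the dimmest over both arrays passed 2-fold as deposited. The 3 values spanned 3.01 on the log2 scale, a range reached by 15 of the 1453 genes with 3 measured probe sets (1.03%). As the mean over probe sets, WWTR1 was at -1.59 and thus past 2-fold. Over the scalings tried, 202134_s_at was between 9.48-fold and 12.2-fold lower, and 202132_at passed 2-fold under some of them (log2 ratio from -1.12 to -0.76).

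TEAD1 and TEAD4, which carry YAP and TAZ to DNA, were within 2-fold. The measured TEAD1 probe set, 224955_at, read 4176.7 on the DMSO array and 4901.6 on the gefitinib array (log2 ratio 0.23), while 1553322_s_at (56.2 and 36.4) and 214600_at (88.1 and 92.1) were under the floor on both arrays. TEAD4 had 675.3 and 840.2 at 204281_at (0.32) and 627.4 and 650.7 at 41037_at (0.05). The range of 0.26 between its probe sets was matched or exceeded in 2078 of the 3160 genes with 2 measured probe sets (65.8%). Of the other TEAD genes, TEAD3 had 596.3 with DMSO and 1012.8 with gefitinib (log2 ratio 0.76) at its only probe set, and TEAD2 was below the floor at all 4 of its probe sets.

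The matricellular proteins CCN1 and CCN2 are the most widely used reporters of YAP and TAZ activity, and here their values differed. At the only probe set of CCN2, 209101_at, the DMSO signal was 99.9 and the gefitinib signal 597.6, at least 5.98-fold higher (log2 ratio 2.58). At rank 82 of 11223 from the highest ratio, it led the 9 genes. Its DMSO signal lay just under the floor, and with a floor of 200 the bound was 1.58 on the log2 scale. CCN1 had 2607.5 with DMSO and 2602.4 with gefitinib at 201289_at, a log2 ratio of 0.00 after rounding, and 2200.7 and 1891.1 at 210764_s_at (-0.22). Over the scalings tried, the value at 201289_at ran from -0.19 to 0.17 and so changed sign. ANKRD1, a nuclear ankyrin-repeat protein and the third of these targets, had signals of 18.1 with DMSO and 28.5 with gefitinib, both under the floor, and no fold is given.

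The regulators AMOTL2 and AJUBA were higher with gefitinib. AMOTL2, an angiomotin-family scaffold that binds YAP and activates LATS kinases at cell junctions, read 982.7 on the DMSO array and 4339.7 on the gefitinib array at its only probe set, 203002_at, 4.42-fold higher (log2 ratio 2.14, rank 184). AJUBA, a LIM-domain protein that binds LATS kinases and restrains them, had 1803.5 with DMSO and 5621.4 with gefitinib at 225806_at, 3.12-fold higher (1.64, rank 490). Its probe set 1553764_a_at, with 1502.7 and 4783.5, gave 3.18-fold. At 225807_at the signal was 96.7 and 622.4, at least 6.22-fold higher. The fourth AJUBA probe set, 243446_at, went the other way, with 224.2 and 131.3 (log2 ratio -0.77), within 2-fold. The range of 3.41 over the 4 AJUBA probe sets was reached by 3 of the 535 genes with 4 measured probe sets (0.561%), and their mean was 1.29.

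LATS2, a kinase that phosphorylates YAP and TAZ, was within 2-fold at its brighter probe sets. Probe set 227013_at read 1772.8 on the DMSO array and 2032.5 on the gefitinib array (log2 ratio 0.20), and at 223380_s_at it was 1112.0 and 1552.8 (0.48). At 230348_at it was 318.5 and 110.2, 2.89-fold lower, and 223379_s_at was under the floor (5.7 and 3.5). The mean over the 3 measured probe sets was -0.28, so the sign of LATS2 depends on the probe sets taken. With a floor of 200 the value at 230348_at became a bound of -0.67. The related kinase LATS1 had 320.7 with DMSO and 537.4 with gefitinib at 227772_at (log2 ratio 0.74), within 2-fold. Its probe set 1570425_s_at gave a bound of -0.43.

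**Figure D3:**
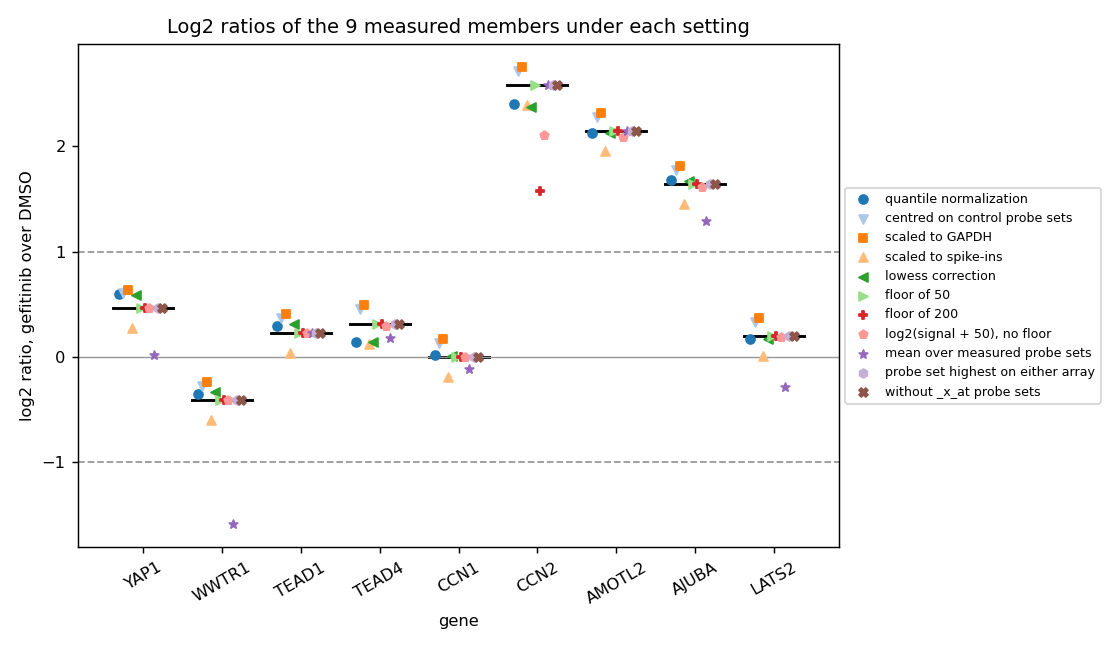
Log2 ratios, gefitinib over DMSO (vertical axis), for the 9 measured genes (horizontal axis) under 11 alternative settings, 1 array per condition. Black bars are the values as reported and dashed lines mark 2-fold; CCN2, AMOTL2 and AJUBA lie above the upper line under each setting, and WWTR1 lies below the lower line only with the mean over probe sets.

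The other genes of the Hippo pathway were taken as a list of 40, of which 32 were measured. At least 2-fold higher were 4 of the 32 (12.5%), beside 13.3% of all measured genes, and at least 2-fold lower were 2 (6.25%), beside 6.2% of all. Their median log2 ratio was 0.16, beside 0.12 for all measured genes. These shares are near those of all genes.

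Among the kinases and their upstream regulators, 14 of 15 genes were measured. At least 2-fold higher was 1 of the 14 (7.14%), beside 13.3% of all measured genes, and at least 2-fold lower were 2 (14.3%), beside 6.2%. MAP4K4, a kinase that acts on LATS beside the MST kinases, had 2246.7 with DMSO and 872.1 with gefitinib, 2.58-fold lower, and its 4 measured probe sets had log2 ratios from -1.37 to -0.33, with a mean of -0.81 that is within 2-fold. MOB1A, a cofactor of LATS, had 5271.7 and 2575.2, 2.05-fold lower, but its probe sets ran from -1.03 to 0.47, with a mean of -0.18. At its only probe set MOB1B had 509.3 with DMSO and 963.7 with gefitinib, a log2 ratio of 0.92, within 2-fold. It passed 2-fold with centring on control probe sets (1.06) and with GAPDH scaling (1.10). WWC3, a relative of KIBRA, had 434.5 and 933.6, 2.15-fold higher, and its second probe set gave a log2 ratio of 2.13. Over the scalings tried, MOB1A ran from -1.22 to -0.86 and WWC3 from 0.91 to 1.28, on either side of 2-fold. The MST kinases STK3 (log2 ratio -0.12) and STK4 (-0.19) were within 2-fold. SAV1 had 2101.2 with DMSO and 1174.4 with gefitinib (-0.84), within 2-fold. Its 5 measured probe sets, some of them bounds, ran from -1.51 to -0.11, and with spike-in scaling it was at -1.03. The merlin gene NF2 was within 2-fold at its brightest probe set (-0.15), but not at 211092_s_at (-1.17) and 211091_s_at (-1.06). The mean over its 6 measured probe sets, all lower with gefitinib, was -0.75. FRMD6 had 2043.8 and 1052.4, with a log2 ratio of -0.96, and its other probe set passed 2-fold at -1.06, as did their mean at -1.01.

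Of the 12 junction and polarity scaffolds, 9 were measured. At least 2-fold higher was 1 of the 9 (11.1%), beside 13.3% of all measured genes, and none was at least 2-fold lower, beside 6.2%. The higher gene was LIMD1, a relative of AJUBA, with 254.2 with DMSO and 618.9 with gefitinib, 2.43-fold higher. Its value rests on 222762_x_at, and the other 2 measured probe sets gave -0.02 and 0.13. AMOTL1, the relative of AMOTL2, had a log2 ratio of 0.41 and AMOT was not measured. The brightest of the others, DLG5 (0.08), LLGL1 (0.27) and PALS1 (0.25), were within 2-fold at their brightest probe sets. LLGL1 was 2.09-fold higher at 206123_at and 2.84-fold higher at 206124_s_at. The mean log2 ratio over its 3 measured probe sets was 0.94, within 2-fold. All 6 measured subunits of the STRIPAK phosphatase complex, which opposes the MST kinases, were within 2-fold at their brightest probe sets. Their log2 ratios ran from -0.36 for STRN3 to 0.56 for STRN4. Other probe sets passed 2-fold. The 8 measured probe sets of STRN ran from -0.40 to 1.68, with a mean of 0.61. The 2 of STRN3 ran from -1.16 to -0.36, with a mean of -0.76.

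The vestigial-like proteins bind TEADs at the surface that YAP and TAZ use, and both measured members of the family were higher with gefitinib. With TEAD2 and TEAD3 the family formed a list of 6 genes, of which 3 were measured. At least 2-fold higher were 2 of the 3 (66.7%), beside 13.3% of all measured genes, and none was at least 2-fold lower, beside 6.2%. VGLL1 read 143.4 on the DMSO array and 1952.6 on the gefitinib array at 215729_s_at, 13.6-fold higher (log2 ratio 3.77), rank 19 of 11223. At 205487_s_at it had 11.8 and 358.4, at least 3.58-fold higher. VGLL4, which competes with YAP, had 2336.7 and 4899.2 at 212399_s_at, 2.10-fold higher, and its second probe set gave a log2 ratio of 1.08. The value of VGLL4 at 212399_s_at was 0.88 with scaling to the spike-ins, within 2-fold. VGLL2 and VGLL3 were below the floor.

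A list of 17 further genes known as direct targets of YAP and TAZ in several cell types served as a wider readout, and 15 of them were measured. At least 2-fold higher were 7 of the 15 (46.7%), beside 13.3% of all measured genes, and at least 2-fold lower were 2 (13.3%), beside 6.2%. The median log2 ratio was 0.72. Higher were the matrix protein CCDC80 (136.9 with DMSO and 2194.0 with gefitinib, 16.0-fold), FJX1 (74.2 and 676.6, at least 6.77-fold), the receptor tyrosine kinase AXL (360.8 and 1424.4, 3.95-fold) and IGFBP3, a carrier of insulin-like growth factors (794.3 and 3073.6, 3.87-fold). F3, the tissue factor that starts coagulation, had 248.9 and 889.1 (3.57-fold higher), ARHGEF17 had 133.5 and 331.7 (2.48-fold) and the forkhead factor FOXF2 had 490.8 and 1172.6 (2.39-fold). The values of FJX1, AXL, F3, ARHGEF17 and FOXF2 each rest on 1 measured probe set. With a floor of 200, ARHGEF17 was within 2-fold, at a log2 ratio of 0.73.

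The targets that were lower were NT5E and GADD45A. NT5E, the surface enzyme that turns AMP into adenosine, had 4182.4 with DMSO and 603.5 with gefitinib, 6.93-fold lower, and its 4 probe sets ran from -2.79 to -1.51 on the log2 scale. GADD45A, a stress-response gene, had 10638.9 and 4591.8, 2.32-fold lower, at its only probe set. The brightest of those within 2-fold were MYOF (log2 ratio 0.18), ASAP1 (0.51) and PTPN14 (0.08), which also encodes a binding partner of YAP and whose probe sets ran from -1.31 to 1.31. CRIM1 was at 0.72, DOCK5 at -0.01 and RBMS3 at least 1.34-fold higher, a bound. RBMS3 passed 2-fold with a floor of 50 (log2 ratio 1.42) and with a pseudocount of 50 in place of the floor (1.23). TGFB2 was below the floor and NUAK2 had no single-gene probe set. Many of these genes are also controlled by other factors.

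Of 6 more genes reported as targets, 5 were measured. At least 2-fold higher were 2 of the 5 (40%), beside 13.3% of all measured genes, and none was at least 2-fold lower, beside 6.2%. Thrombospondin 1, THBS1, had 436.2 with DMSO and 1952.7 with gefitinib at its brightest probe set, 4.48-fold higher, and log2 ratios from 1.88 to 3.64 over its 3 measured probe sets. The secreted glycoprotein FSTL1 had 753.2 and 2999.1, 3.98-fold higher. CDC42EP3 had 1557.0 and 3092.0 at its brightest probe set, a log2 ratio of 0.99 that lies just within 2-fold, and its 4 probe sets ran from 0.63 to 1.59. It passed 2-fold with the mean over these probe sets (1.13), with centring on control probe sets (1.13) and with GAPDH scaling (1.17). The others were ARHGAP29 (0.37) and BIRC5 (-0.50), an apoptosis inhibitor that also follows cell division. EDN1 was below the floor.

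CCN1, CCN2 and ANKRD1 are also targets of SRF and its actin-regulated cofactors, so 11 SRF targets were set beside them. Of the 6 measured, none was at least 2-fold higher, beside 13.3% of all measured genes, and 1 (16.7%) was at least 2-fold lower, beside 6.2%. The lower gene was FHL2, with 3677.2 with DMSO and 1232.0 with gefitinib, 2.98-fold lower. The median log2 ratio of the 6 was -0.05. The brightest, VCL, CNN2 and TPM1, had log2 ratios of -0.09, -0.19 and 0.43, and ACTA2, CNN1, MYL9 and CALD1 were below the floor. TAGLN had signals of 51.8 with DMSO and 135.1 with gefitinib (205547_s_at), and of 74.6 and 129.3 (1555724_s_at). Its log2 ratios there, 0.43 and 0.37, are lower bounds, and 226523_at was under the floor (62 and 51.1). With a floor of 50, TAGLN had a log2 ratio of 0.79. SRF itself, also on the list, was at -0.004. The part of SRF in the CCN2 value was not tested.

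**Figure D4:**
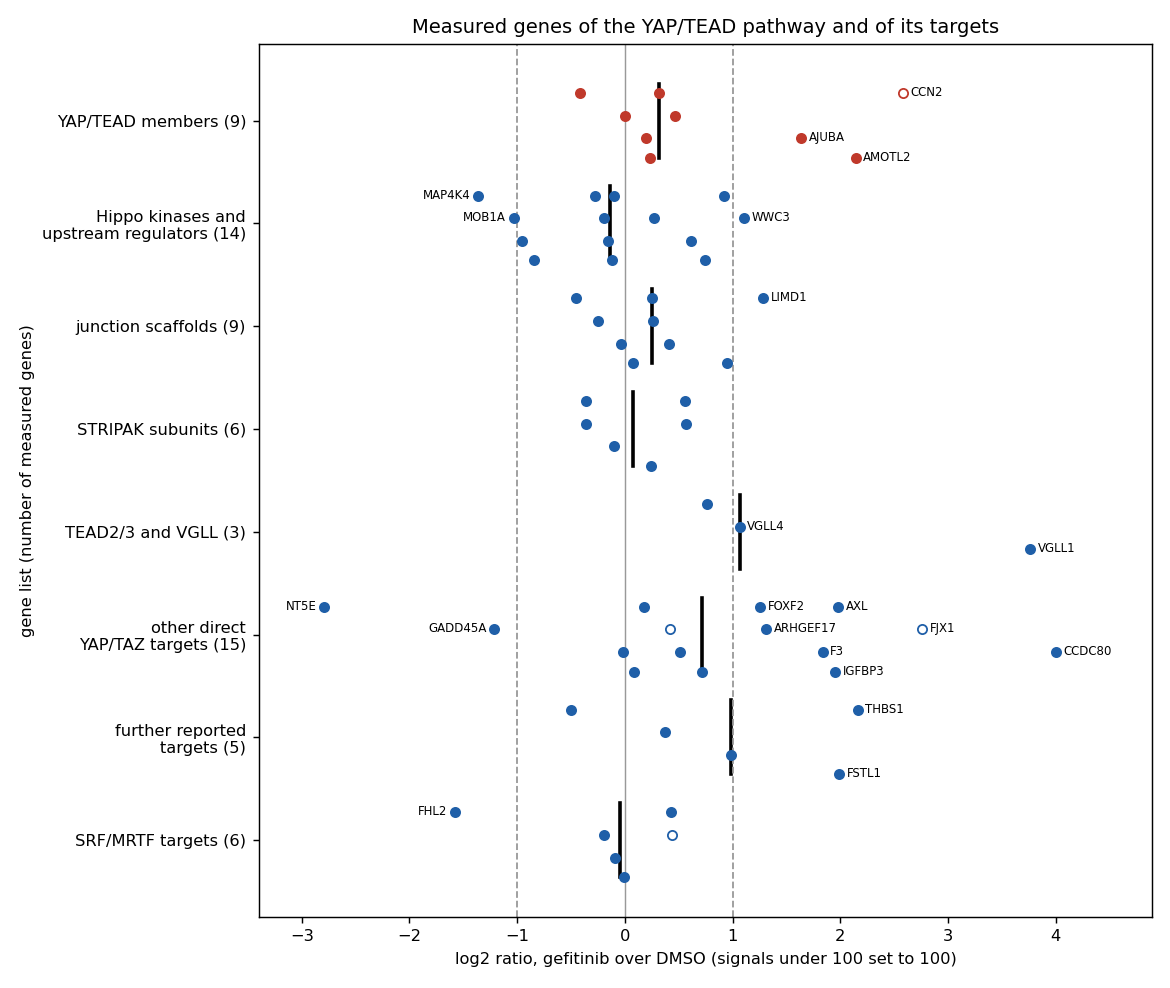
Log2 ratios of gefitinib over DMSO (horizontal axis) of 8 lists of genes (vertical axis), measured genes only, from a single array for each condition. Open points are bounds, since 1 of their signals lay under 100, black bars are list medians, and genes past the dashed 2-fold lines are named; the direct targets run from -2.79 for NT5E to 4.00 for CCDC80.

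Several of these targets are also abundant in fibroblasts and endothelial cells, whose markers were therefore examined. Of 6 fibroblast markers, 5 (PDGFRB, COL1A2, COL3A1, DCN and LUM) lay under 100 with either treatment, and COL1A1 had 420.8 with DMSO and 950.2 with gefitinib at its brightest probe set, 2.26-fold higher. The 3 measured probe sets of COL1A1 ran from 0.14 to 1.57 on the log2 scale. Its probe sets 202311_s_at (7.9 and 32.1) and 202312_s_at (16.5 and 3.1) were under the floor on both arrays. COL1A1 was within 2-fold with the mean over its measured probe sets (0.96), with spike-in scaling (0.99) and with lowess correction (0.99). The summed signal of the 6 was 517.3 with DMSO and 1011.9 with gefitinib. Of 3 endothelial markers, CDH5 was below the floor, PECAM1 had 128.4 and 78.0, and VWF had 30 and 496.0, at least 4.96-fold higher. PECAM1 was measured at 1 of its 5 probe sets and VWF at 1 of its 2. The summed signal of the 3 endothelial markers was 173.8 with DMSO and 588.6 with gefitinib. The 3 leukocyte markers were below the floor. The part of other cell types in the higher target signals was not tested.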

How the data were processed

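RNA of H322c cells was measured on 2 Affymetrix U133 Plus 2.0 arrays, 1 with gefitinib and 1 with DMSO, assigned from the sample labels. The authors deposited signal intensities on a linear scale, made with MAS5 per the labels; the MAS5 version was not given in the sources used here. The 2% trimmed mean was 500 on each array, so each array had been scaled to a common mean. The number of arrays limits the precision, and no detection calls were used. Of 54675 probe sets, 41097 were annotated to 1 gene, 1801 to several and 11777 to none listed; symbols were updated by gene identifier (41043 matched, GRCh38.p14).

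After signals under 100 had been set to 100, log2 ratios were taken as gefitinib over DMSO. No p-value was computed. The members and gene lists were chosen with earlier results of these data known. Named are all members, TEAD2 and TEAD3, genes of each list past 2-fold (at most 8), up to 3 of the brightest within 2-fold, and others named to complete a list. A further listed gene, which has no single-gene probe set, is not reported here. No genes were ranked by likeness to a member, since 2 arrays give no pattern beyond 1 ratio. The code was tested on simulated data. Python 3.11.15, numpy 2.4.6, pandas 2.3.3, statsmodels 0.14.6 and matplotlib 3.10.9 were used.

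Alternatives were quantile normalization, centring on control probe sets (200000 to 200099), scaling to GAPDH or to spike-ins, lowess correction (span 0.3), floors of 50 and 200, a pseudocount of 50 with no floor, the mean over probe sets, the probe set highest on either array, no _x_at probe sets, and thresholds of 1.5-fold and 3-fold.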

Additional observations from a re-analysis of the deposited data

How the results depend on the processing

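With 1 array per condition no replicate could be left out, and no paired analysis was possible because each group has a single array. CCN2, AMOTL2 and AJUBA stayed at least 2-fold higher under each of the 11 alternatives for scaling, floor and probe set, and also at a 3-fold threshold. The number of members at least 2-fold lower was 1, WWTR1, with the mean over probe sets. Of 99 values of the 9 measured members under these alternatives, 97 moved by less than the spread between probe sets of 0.54. The other 2 were WWTR1 with that mean (-1.59) and CCN2 with a floor of 200 (1.58), where the bound follows from the higher floor. Most values could hardly have moved further. Centring on control probe sets, GAPDH scaling and spike-in scaling subtract only -0.14, -0.18 and 0.19 from a log2 ratio. A member with a single measured probe set cannot change with the choice of probe set. The count of 97 is therefore no measure of how well the values would repeat. The median of the members ran from 0.13 with spike-in scaling to 0.49 with GAPDH scaling.

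Of the other Hippo pathway genes, the number at least 2-fold lower was 1 with centring on control probe sets, GAPDH scaling or the mean over probe sets (there FRMD6, in place of MAP4K4 and MOB1A), 4 with spike-in scaling, and 4 at 1.5-fold and 0 at 3-fold. The number higher, 4 as reported, was 2 with spike-in scaling, 6 with centring on control probe sets or GAPDH scaling, 3 with quantile normalization, lowess correction, the mean over probe sets or without _x_at probe sets, 9 at 1.5-fold and 1 at 3-fold. The number of direct targets higher, 7 as reported, was 6 with a floor of 200, 8 with a floor of 50, a pseudocount of 50 or at 1.5-fold, and 5 at 3-fold, and the number lower was 1 at 3-fold. Without _x_at probe sets, LIMD1 changed sign to -0.018, since its brightest probe set is one of them. MAS5 signals near the floor are the least precise, which bears on CCN2, 225807_at of AJUBA and 230348_at of LATS2.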

Other observations

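The TEAD motif GGAATG was also set against the array values of all genes with a RefSeq promoter window. Of 1341 measured genes with a match in any window, 182 (13.6%) were at least 2-fold higher on the gefitinib array, beside 1013 (12.8%) of 7926 genes without one. At least 2-fold lower were 86 (6.41%) and 490 (6.18%). Genes with several windows have more chances of a match. Among genes with 1 window, 68 of 664 with a match (10.2%) and 727 of 5889 without one (12.3%) were at least 2-fold higher. Of 10 measured genes with 3 or more matches in a window, 3 (30%) were at least 2-fold higher, beside 13.3% of all measured genes. None was at least 2-fold lower, beside 6.2%. CCN2, a member chosen beforehand, is 1 of these 3, and the count rests on few genes. These shares are descriptions of 2 arrays with no test, and the windows do not hold enhancers, where TEADs often bind.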
